A study of Mus musculus with 6 samples.

Results

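Atf4, Atf5, Ddit3, Cebpb, Cebpg, Trib3, Chac1, Nupr1, Sesn2 and Ddit4 are regulators and effectors of the stress response that is built around the transcription factor ATF4. The 10 genes were chosen by their log2 differences between PJ34 and PBS on these same arrays, together with their known roles, so those differences are given below as a description, without p-values. Each of the 10 had 1 probe set assigned to it alone, out of 19938 genes with such a probe set on the array. Expression was measured in C1498, a mouse cell line of C57BL/6J background that is labelled as acute myeloid leukemia, grown in DMEM with fetal bovine serum. The PJ34 group (n = 3 arrays) received the PARP-1 inhibitor PJ34 at 20 μM for 48 h, and the PBS group (n = 3 arrays) received PBS for the same time and is titled as untreated. PARP-1 is a nuclear enzyme that attaches chains of ADP-ribose to proteins, above all at damaged DNA. A cell line stands for a single leukemia, and only 1 dose and 1 time point were measured.

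ATF4 is made when kinases that sense amino acid shortage, unfolded proteins in the endoplasmic reticulum (ER), viral RNA or lack of heme phosphorylate the translation factor eIF2α. Phosphorylated eIF2α slows protein synthesis in general, while upstream reading frames in the Atf4 mRNA let its own translation increase. ATF4 then activates genes of amino acid synthesis, amino acid import and tRNA charging, as well as further regulators such as CHOP, the product of Ddit3. Since ATF4 is controlled largely at translation, its mRNA is only part of its regulation. The arrays measured mRNA alone.

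The deposited values were log2 expression values from RMA, which were comparable between arrays for one probe set but not between probe sets. Array medians lay between 4.41 and 4.46, and arrays correlated at 0.992 to 0.995 within a group and at 0.992 to 0.994 between groups. By these measures no array stood apart, though the number of calls depended on which array was left out. Of 14 measured myeloid markers, 10 had a mean below the median of all probe sets (4.42), among them Mpo, Elane, Csf1r, Itgam, Cd33, Spi1 and Lyz2, and Cebpa, Cebpe, Cd68 and Fcgr1 lay above it. Of 14 markers of T and NK cells, 6 lay above it, with the CD3 chains Cd3g and Cd3e at means of 11.1 and 10.5. The CD3 chain Cd3d was much closer to the median, at 4.76. The other 8 lay below the median, namely Cd247, Cd4, Cd8a, Cd2, Cd5, Klrb1c, Ncr1 and Nkg7. The values hold no detection calls, so a low value does not show absence. The summed myeloid markers ranged from 8.27 to 8.29 with PBS and from 8.53 to 8.61 with PJ34 on the log2 scale, and the T and NK markers from 12.01 to 12.06 and from 12.12 to 12.17. The 6 measured B cell markers ranged from 6.08 to 6.22 and from 6.13 to 6.24, and the 6 fibroblast markers from 6.87 to 6.89 and from 6.72 to 6.98. Such sums weigh the brightest probe sets most and do not measure shares of cell types. In the limma fit used below, 2 myeloid markers and 2 T and NK markers passed as higher with PJ34, and 0 as lower. The part of these shifts in the results below was not tested, and in bulk RNA fewer cells of a type and less RNA per cell cannot be told apart.

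Among the 10 genes, Trib3, Nupr1, Chac1 and Ddit3 had the largest differences, and their mRNA levels with PJ34 were 46.2% to 58.4% of those with PBS. Trib3 encodes a pseudokinase that is induced by ATF4 and CHOP and binds ATF4 and Akt. Its log2 values were 8.35, 8.42 and 8.59 on the PBS arrays and 7.41, 7.24 and 7.38 on the PJ34 arrays. The groups were separated by 0.94 log2 units, the widest gap among the 10 genes. The log2 difference was -1.11 (SE 0.083), so that the level with PJ34 was 46.2% of that with PBS (95% confidence interval 40.6% to 52.7%). Nupr1, a small stress-induced chromatin protein, had values of 6.57, 6.68 and 6.86 with PBS and of 5.87, 5.73 and 5.77 with PJ34. Its difference of -0.91 (SE 0.087) came with the widest spread between PBS arrays of all 10 genes, a range of 0.29. The groups still did not overlap, with 0.69 between the lowest PBS and the highest PJ34 value.

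Chac1 encodes an enzyme that degrades glutathione, the main thiol of the cell. Its values were 8.23, 8.30 and 8.39 with PBS and 7.45, 7.35 and 7.41 with PJ34. The difference was -0.91 (SE 0.068), or 53.4% of the PBS level (95% confidence interval 47.9% to 59.4%). Ddit3 encodes CHOP, a basic leucine zipper protein that drives the late, pro-apoptotic arm of the ER stress response. It had values of 8.58, 8.57 and 8.52 with PBS and of 7.81, 7.80 and 7.73 with PJ34. Replicates of Ddit3 lay within 0.06 log2 units of each other in the PBS group and within 0.08 in the PJ34 group. Its difference of -0.78 (SE 0.061) left the PJ34 level at 58.4% of the PBS level (95% confidence interval 53.0% to 64.2%).

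**Figure D1:**
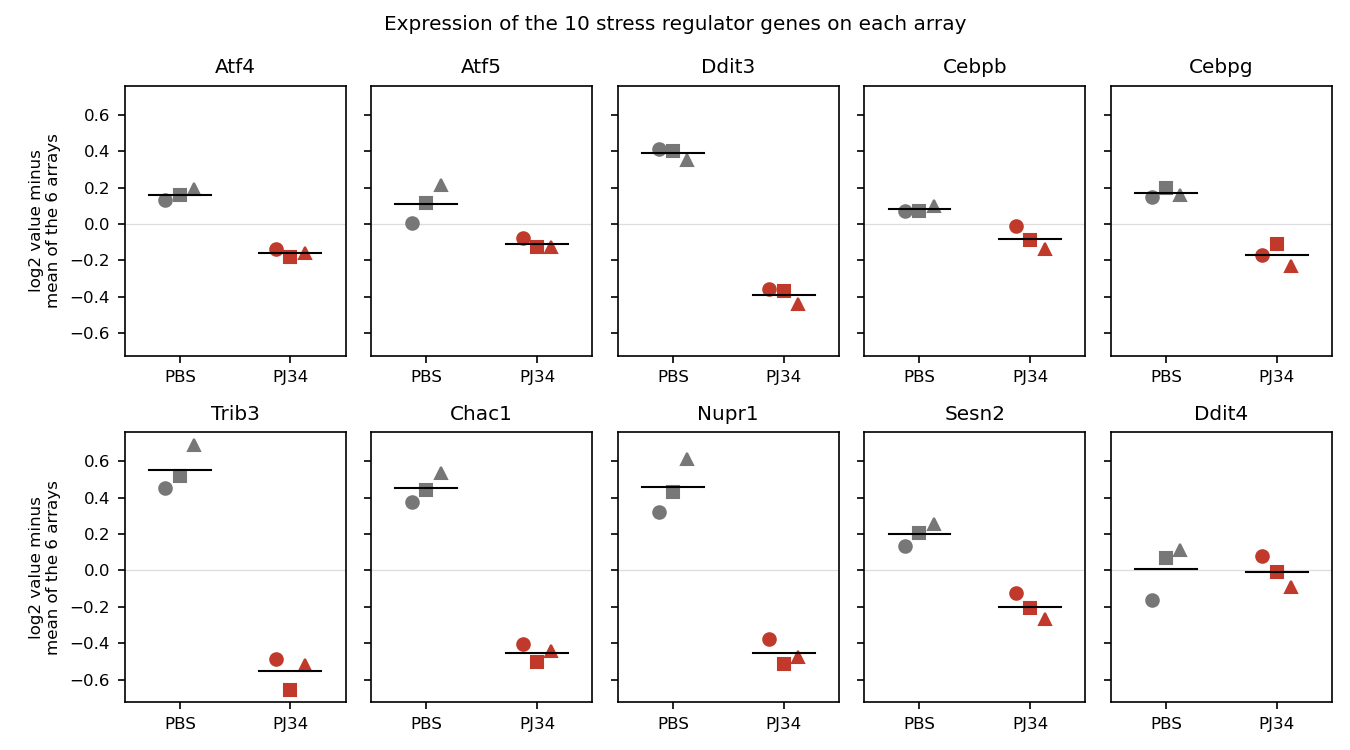
Log2 value minus the gene's mean over the 6 arrays (vertical axis) for each of the 10 genes, in grey with PBS and in red with PJ34 (horizontal axis), with circles, squares and triangles for replicates 1, 2 and 3 and black lines at group means. The groups overlap for Ddit4 alone, and the gap is widest for Trib3.

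ATF4 binds DNA together with C/EBP proteins at composite elements in which an ATF site (TGA) adjoins a C/EBP site (GCAA or a like sequence). The 250 bases before the annotated start of Chac1, Nupr1, Trib3 and Ddit3 are shown because the mRNAs of these genes differed most between the groups. Sequences are from RefSeq, build GRCm38.p6, and read 5′ to 3′ on the strand of the gene. Capitals mark matches, on either strand, to TGATGNAA or TGANGCAA, which overlap in TGATGCAA.
Chac1, chr2:119350992-119351241, + strand: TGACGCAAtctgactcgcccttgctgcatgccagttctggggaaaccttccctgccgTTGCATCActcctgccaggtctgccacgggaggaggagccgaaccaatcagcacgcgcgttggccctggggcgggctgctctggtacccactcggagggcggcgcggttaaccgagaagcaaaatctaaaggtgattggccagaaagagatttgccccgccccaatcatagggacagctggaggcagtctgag
Nupr1, chr7:126625471-126625720, - strand: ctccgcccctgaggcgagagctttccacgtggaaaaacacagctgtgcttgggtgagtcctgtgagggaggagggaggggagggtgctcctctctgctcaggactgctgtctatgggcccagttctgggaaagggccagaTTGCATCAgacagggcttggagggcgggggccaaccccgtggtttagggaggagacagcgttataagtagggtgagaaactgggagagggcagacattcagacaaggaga
Trib3, chr2:152344061-152344310, - strand: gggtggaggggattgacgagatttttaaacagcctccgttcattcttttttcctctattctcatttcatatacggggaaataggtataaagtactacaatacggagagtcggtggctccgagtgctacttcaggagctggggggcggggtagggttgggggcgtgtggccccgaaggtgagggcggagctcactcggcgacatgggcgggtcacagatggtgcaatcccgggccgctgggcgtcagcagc
Ddit3, chr10:127290543-127290792, + strand: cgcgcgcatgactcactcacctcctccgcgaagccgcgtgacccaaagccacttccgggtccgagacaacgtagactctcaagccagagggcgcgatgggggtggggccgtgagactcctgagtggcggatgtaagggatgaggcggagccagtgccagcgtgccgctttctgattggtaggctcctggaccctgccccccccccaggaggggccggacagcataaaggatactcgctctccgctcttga

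Chac1 held 2 matches. TGACGCAA began 250 bases and TTGCATCA 193 bases before the start. Nupr1 held 1 match, TTGCATCA, at 110 bases, which is the same stretch of letters as the second match of Chac1 and reads TGATGCAA on the other strand. The windows of Trib3, Ddit3 and the other 6 genes held no match, which says only that these letters are not in this window. All 10 genes had an entry, and 2 of them held a match, against 6.5% of 27025 genes with an entry. Counted by entry, the 10 genes had 11, of which 2 held a match. Of 32851 RefSeq promoter entries, 5.7% held a match to either motif in their 250 bases, 3.5% to TGATGNAA and 3.1% to TGANGCAA. Whether ATF4 or another protein occupied these sites in C1498 cells was not measured.

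The other transcription factors of the group differed less than Ddit3, and for each of them the PJ34 values lay below the PBS values. Atf4 itself had values of 9.56, 9.59 and 9.62 with PBS and of 9.29, 9.25 and 9.27 with PJ34. Its difference of -0.32 (SE 0.059) corresponded to 79.8% of the PBS level (95% confidence interval 72.7% to 87.6%). The gap between groups, 0.28, was wider than the range within either group, which was 0.06 with PBS and 0.03 with PJ34. Cebpg encodes a C/EBP protein that lacks an activation domain of its own and pairs with ATF4. Its values were 7.52, 7.57 and 7.53 with PBS and 7.20, 7.26 and 7.14 with PJ34, a difference of -0.34 (SE 0.063). The size was close to that of Atf4, and their confidence intervals, -0.46 to -0.19 for Atf4 and -0.48 to -0.19 for Cebpg, overlapped almost wholly.

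Atf5 and Cebpb had the smallest differences among the transcription factors. Atf5, a close relative of ATF4 with a similar control of translation, had values of 6.62, 6.73 and 6.83 with PBS and of 6.54, 6.49 and 6.49 with PJ34. The gap between the groups was 0.08, less than the range of 0.21 among the PBS arrays. The log2 difference was -0.22 (SE 0.072). Cebpb encodes C/EBPβ, an activator in inflammation, myeloid differentiation and the amino acid response. It had values of 6.50, 6.50 and 6.53 with PBS and of 6.42, 6.34 and 6.29 with PJ34, with a difference of -0.16 (SE 0.063) and a gap of 0.08. For Cebpb the spread lay mainly in the PJ34 group, whose range was 0.13 against 0.02 with PBS.

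Sesn2 and Ddit4 both encode stress-induced inhibitors of the growth kinase complex mTORC1, and the groups were apart for Sesn2 and overlapped for Ddit4. Sesn2 encodes Sestrin 2, a leucine sensor. Its values were 8.42, 8.49 and 8.54 with PBS and 8.16, 8.08 and 8.02 with PJ34, a difference of -0.40 (SE 0.068) or 75.9% of the PBS level. Ddit4 encodes REDD1, which acts through the TSC complex and responds to low oxygen, glucocorticoids and DNA damage as well as to ATF4. Its values were 7.0, 7.23 and 7.27 with PBS and 7.24, 7.15 and 7.07 with PJ34. The groups overlapped throughout, and the difference of -0.01 had a 95% confidence interval of -0.22 to 0.19. With these 3 arrays a group, a change of Ddit4 within that interval could not be told apart from no change.

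All PJ34 values lay below all PBS values for 9 of the 10 genes, against 10.9% of the 23410 probe sets that the gene table names. The limma fit over these probe sets placed 7 of the 10 below an adjusted p of 0.05 as lower (Trib3, Chac1, Ddit3, Nupr1, Sesn2, Atf4 and Cebpg) and 0 as higher. In that fit 1.34% of all probe sets were called lower and 1.72% higher. Nothing is read from these counts, since the genes were picked from the same contrast. Atf5, Cebpb and Ddit4 were outside the threshold. Of the genes inside, Cebpg and Atf4 lay nearest to the threshold. Of the genes outside, Atf5 lay nearest, though well away from it, and it came inside in none of the alternatives tried. The median log2 difference of the 10 genes was -0.37, against 0.004 over 1 probe set for each gene on the array. Leaving out PBS replicate 1, 2 or 3, or PJ34 replicate 3, brought the number inside the threshold from 7 to 4, and leaving out PJ34 replicate 1 to 5. Sesn2, Atf4 and Cebpg were the genes concerned without an array of the PBS group or PJ34 replicate 3, and Atf4 and Cebpg without PJ34 replicate 1. The other 4 genes stayed inside in each of these fits, and the 10 log2 differences moved by less than the SD between replicates in every alternative tried. These fits describe the dependence on single arrays only. They do not test the genes, as each reuses the contrast by which the genes were picked.

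Variation among replicates ran in the same direction in most of the 10 genes. PBS replicate 1 gave the lowest PBS value for 9 of them, against 40% of all genes on the array, and PBS replicate 3 the highest for 8, against 34.2%. The pattern of both together held for 8 of the 10 (Atf4, Atf5, Cebpb, Trib3, Chac1, Nupr1, Sesn2 and Ddit4) and for 19.9% of all genes. PJ34 replicate 1 was the highest PJ34 array for 9 of the 10, against 32.7% of all genes. The ranges were small, 0.02 to 0.29 with PBS and 0.03 to 0.18 with PJ34, and except for Atf5, Cebpb and Ddit4 they were smaller than the gap between the groups. The 10 genes share their 6 RNA samples, so they are not independent readings of this pattern.

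None of 17 measured paralogues and basic leucine zipper relatives fell, and Trib1 rose (6 of 17 had values below 0, median log2 difference 0.07). Of all probe sets, 1.34% were called lower and 1.72% higher, so a count of 0 does not set so short a list apart. With an unadjusted p under 0.05 from limma, 0 of the 17 were lower and 3 higher, and the methods' t-test called 0 after adjustment. Trib1 encodes a pseudokinase that directs C/EBPα to degradation. Its values were 5.91, 5.96 and 6.08 with PBS and 6.52, 6.60 and 6.49 with PJ34, with a log2 difference of 0.56 (SE 0.071, adjusted p = 0.00701 from limma). The third family member, Trib2, had a difference of 0.23 (SE 0.112, adjusted p = 0.361 from limma) with overlapping groups. Sesn1 had values of 7.70, 7.90 and 7.82 with PBS and of 8.11, 8.21 and 8.04 with PJ34, opposite to Sesn2 in sign, at 0.31 (SE 0.077, adjusted p = 0.0726 from limma). Sesn3 stood at 0.07, Chac2 at 0.08, Ddit4l at 0.08 and Nupr1l at 0.22, and none of them passed the test. Among the C/EBP genes, Cebpa, Cebpd and Cebpe had differences of -0.14, 0.22 and -0.01 and did not pass either. The means of Ddit4l, Nupr1l and Cebpd lay below the median of the array. Atf3, a stress-induced repressor and target of ATF4, stood at -0.08 (SE 0.099) with a mean at the median of the array. Whether any of these differed from its relative among the 10 genes was not tested.

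**Figure D2:**
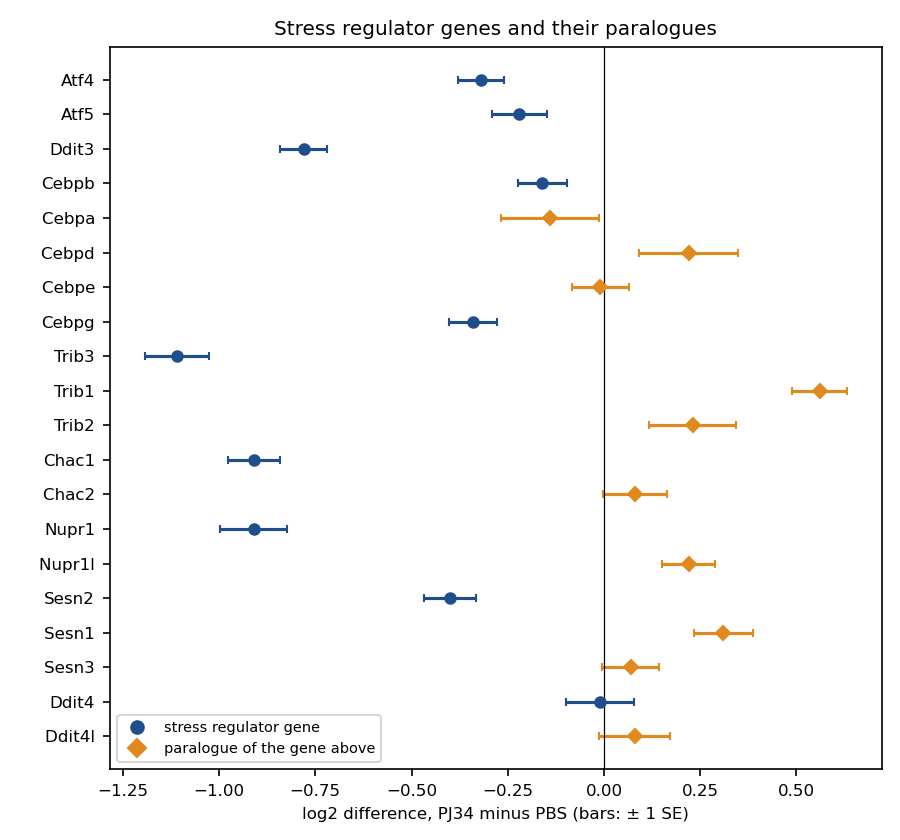
Log2 difference, PJ34 minus PBS (horizontal axis), for the 10 genes (blue circles) and, under each, its paralogues (orange diamonds), with bars of 1 SE from the fit over all probe sets. Trib3 lies at -1.11 and Trib1 at 0.56, and Sesn2 at -0.40 and Sesn1 at 0.31.

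The machinery upstream of ATF4 showed no called change at the mRNA level. The list of 16 measured genes covered eIF2α kinases, eIF2 and eIF2B subunits and regulators of eIF2α phosphatase, with Gcn1, Dnajc3 and Oma1 added. Eif2s1, the gene of eIF2α itself, was not among those measured. Of the 16, 0 passed limma in either direction. With 1.34% of all probe sets called lower and 1.72% higher, a count of 0 among 16 genes does not set this list apart. At an unadjusted p under 0.05, 1 gene was lower and 0 were higher, and the methods' t-test called 0 after adjustment. Log2 differences of the kinase genes were 0.05 for Eif2ak1 (heme-regulated), 0.17 for Eif2ak2 (PKR), 0.03 for Eif2ak3 (PERK) and 0.09 for Eif2ak4 (GCN2). Ppp1r15a, which encodes the CHOP-induced phosphatase subunit GADD34, had the lowest value, -0.23 (SE 0.083, adjusted p = 0.204 from limma). The kinases act by phosphorylation, which arrays do not see.

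Known ATF4 targets in amino acid metabolism were lower with PJ34 in part. Of 14 measured enzymes of amino acid, serine and folate metabolism, 5 fell and 0 rose, with a median log2 difference of -0.23. Pck2, the mitochondrial phosphoenolpyruvate carboxykinase, had values of 8.90, 9.04 and 9.11 with PBS and of 8.27, 8.13 and 8.17 with PJ34. Its difference of -0.82 (SE 0.078, adjusted p = 0.00195 from limma) came close to those of Ddit3 and Chac1. Gpt2, an alanine transaminase, fell by 0.54 (adjusted p = 0.0192), the folate enzyme Mthfd2 fell by 0.47 (adjusted p = 0.00898) and the proline synthesis enzyme Aldh18a1 fell by 0.44 (adjusted p = 0.0118), all from limma. Psph, an enzyme of serine synthesis named after its value was seen, fell by 0.37 (adjusted p = 0.0371 from limma). Asns, asparagine synthetase, a classical target of ATF4, had values of 11.48, 11.52 and 11.49 with PBS and of 11.24, 11.25 and 11.22 with PJ34. The difference of Asns, -0.26, missed the threshold (adjusted p = 0.0556 from limma). Its groups did not overlap, as was so for every measured enzyme but Aldh1l2 and Cbs. For 10.9% of all probe sets, all PJ34 values lay below all PBS values. Without Asns, the genes that did not pass had values from -0.28 (Phgdh) to 0.13 (Aldh1l2).

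Of 9 amino acid transporters known as ATF4 targets, 4 fell and 0 rose, against 1.34% and 1.72% of all probe sets. With an unadjusted p under 0.05 from limma, 5 transporters were lower and 2 higher, and the methods' t-test called 3 after adjustment. Slc1a4, a carrier of alanine, serine and cysteine, had values of 8.27, 8.44 and 8.50 with PBS and of 7.77, 7.83 and 7.71 with PJ34. Its log2 difference was -0.63 (SE 0.077, adjusted p = 0.00613 from limma). The glycine transporter Slc6a9 fell by 0.47 (adjusted p = 0.0073), the cationic amino acid carrier Slc7a1 fell by 0.38 (adjusted p = 0.0156) and the glutamine carrier Slc1a5 fell by 0.27 (adjusted p = 0.0482), all from limma. The cystine transporter Slc7a11 had a value of 0.15 (SE 0.066, adjusted p = 0.297 from limma). Of 18 aminoacyl-tRNA synthetases, which charge tRNAs with amino acids, 2 fell and 0 rose. The same unadjusted cut gave 11 synthetases lower and 0 higher, and the methods' t-test called 0 after adjustment. Lars, for leucine, fell by 0.62 (SE 0.081, adjusted p = 0.00742 from limma) and Qars, for glutamine, fell by 0.36 (adjusted p = 0.0242 from limma). The synthetases had a median of -0.20, with 17 of 18 values below 0. Enzymes, transporters and synthetases together had 35 of 41 values below 0, against 48.6% of all genes.

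Other targets of ATF4 and CHOP moved in both directions. Of 16 measured, 5 fell and 2 rose, against 1.34% and 1.72% of all probe sets. With an unadjusted p under 0.05 from limma, 8 were lower and 3 higher, and the methods' t-test called 0 after adjustment. Gadd45a, a protein of growth arrest and DNA damage, fell by 0.47 (adjusted p = 0.00963), and Eif4ebp1, which restrains cap-dependent translation, fell by 0.41 (adjusted p = 0.0139), both from limma. Herpud1, of ER protein degradation, fell by 0.34 (adjusted p = 0.032 from limma), Bbc3, which encodes the pro-apoptotic PUMA, fell by 0.33 (adjusted p = 0.0267 from limma) and Vegfa, named after its value was seen, fell by 0.30 (adjusted p = 0.0417 from limma). Bcl2l11, which encodes the pro-apoptotic BIM and is a target of CHOP, rose by 0.37 (adjusted p = 0.0444 from limma). Sqstm1, the autophagy receptor p62, rose by 0.35 (adjusted p = 0.0325 from limma). Fgf21 and Vldlr lay below the median of the array and did not pass.

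The ER chaperone genes, which belong to the ATF6 and XBP1 arms of the unfolded protein response, were called in few cases. Of 27 measured, 3 fell and 0 rose, with a median of -0.05. Over all probe sets, 1.34% were called lower and 1.72% higher. With an unadjusted p under 0.05 from limma, 5 of the 27 were lower and 2 higher, and the methods' t-test called 0 after adjustment. The sensor Atf6 fell by 0.42 (adjusted p = 0.021 from limma), the degradation gene Sel1l fell by 0.37 (adjusted p = 0.0367 from limma), and Herpud1 was the third. None of the chaperones passed. Hspa5 (BiP) had a value of 0.07, Calr of 0.07 and Canx of 0.03, while Hyou1 stood at -0.16 and Pdia4 at -0.15. Dnajb11 stood at 0.31 (SE 0.101, adjusted p = 0.16 from limma). The groups of Hspa5, Calr and Dnajb11 did not overlap, and neither did those of several other genes of this list. Xbp1 stood at -0.26 (SE 0.072, adjusted p = 0.0972 from limma). Of 8 glutathione genes, which surround Chac1 in metabolism, Gss, glutathione synthetase, fell by 0.31 (adjusted p = 0.0485 from limma) and 0 rose. The unadjusted cut gave 1 of the 8 lower and 1 higher, and the methods' t-test called 0. Of 32 genes of mTORC1 and its regulators, 0 fell and 2 rose, Tsc2 (0.32, adjusted p = 0.0362) and Rraga (0.35, adjusted p = 0.0459), both from limma. Over all probe sets, 1.72% were called higher. The unadjusted cut gave 4 of the 32 lower and 6 higher, and the methods' t-test called 0. With arrays centred on their medians, 0 of the 32 were called in either direction.

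Over the 9 lists, with each gene once and the 10 regulators left out, 19 of 147 measured genes (12.9%) were called lower and 5 (3.4%) higher, against 1.34% and 1.72% of all probe sets. Most of these genes lay above the median of the array, so the share over all probe sets, dim ones included, is an uneven background. Without dim probe sets, 776 of 12696 probe sets were called lower and 891 higher, and 37 pathway genes lower and 8 higher. The lists were written with earlier results of these arrays known and share genes among them. Pck2, Slc1a4, Slc6a9, Lars and Trib1 stayed below the threshold when each array was left out in turn. The other 19 genes named here as fallen or risen did not. Calls of Psph, Slc1a5, Herpud1, Sel1l, Bcl2l11, Tsc2 and Rraga were lost in each of the 6 fits, and those of Bbc3, Vegfa, Sqstm1, Atf6 and Gss in 5 of them, with PJ34 replicate 2 left out the exception. Qars was called only without PBS replicate 1. Eif4ebp1 was lost without PJ34 replicate 3 or any array of the PBS group. Without PBS replicate 2, Mthfd2 was lost, and without PBS replicate 2 or 3, Gadd45a, Aldh18a1, Gpt2 and Slc7a1. Aldh18a1 and Slc7a1 were also lost without PJ34 replicate 1, Gpt2 without PJ34 replicate 2, and Gpt2 and Slc7a1 without PJ34 replicate 3.

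**Figure D3:**
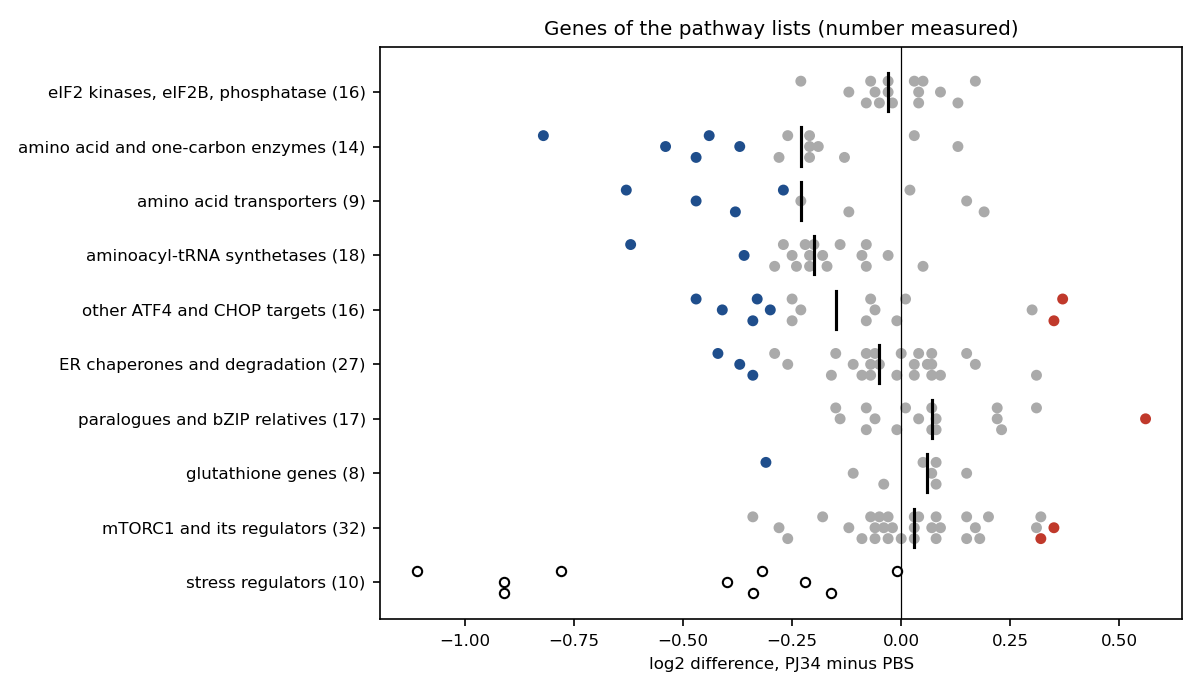
Measured genes of 9 pathway lists by their log2 difference between PJ34 and PBS (horizontal axis, PJ34 minus PBS), with the number measured after each name. Blue and red points were called lower or higher by limma, grey points did not pass, black bars are list medians, and open circles are the 10 regulator genes. Medians run from -0.23 for the enzymes and the transporters to 0.07 for the paralogues.

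The genes whose profile over the 6 arrays was closest to that of the leading regulators came from outside the classical ATF4 list, with 1 exception. Each gene was centred on its own mean, and its root mean square distance was taken to the mean profile of Trib3, Ddit3, Chac1 and Nupr1. Paqr3, a membrane protein of the Golgi, was closest at 0.049 log2 units, followed by the deacetylase Hdac10 at 0.052. Pck2 was at 0.059, Add3, an adducin of the membrane skeleton, at 0.064 and the reductase Cyb5r1 at 0.070. Their log2 differences were -0.89, -0.94, -0.82, -0.95 and -0.82. Paqr3 had centred values of 0.36, 0.45 and 0.52 on the PBS arrays and of -0.38, -0.42 and -0.53 on the PJ34 arrays, against 0.39, 0.45 and 0.55 and -0.41, -0.52 and -0.47 for the mean profile. The distance to that profile was 0.303 for Atf4 and 0.304 for Cebpg, whose differences were smaller. The closeness rests mainly on the size of the difference between the groups, and nothing follows from it about a shared function. When profiles were also divided by their SD, 3 of the 5 (Paqr3, Pck2 and Cyb5r1) were again among the closest 5.

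**Figure D4:**
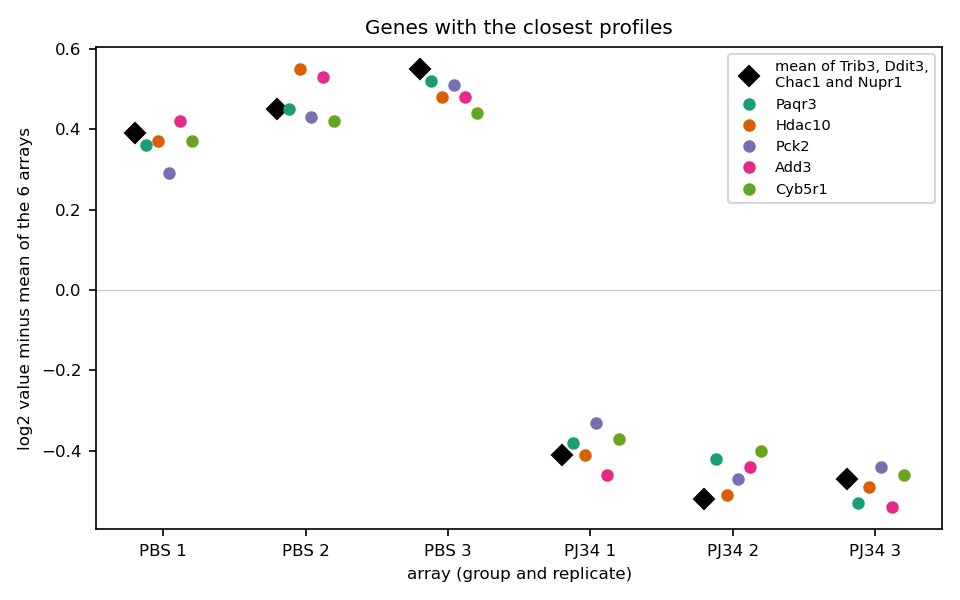
Log2 value minus the gene's mean over the 6 arrays (vertical axis) on each PBS and PJ34 array (horizontal axis) for the mean of Trib3, Ddit3, Chac1 and Nupr1 (black diamonds) and the 5 genes with the closest profiles (coloured circles). All 5 genes lie at 0.29 or above on the PBS arrays and at -0.33 or below on the PJ34 arrays.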

How the data were processed

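RNA of C1498 cells was hybridised to 6 Affymetrix GeneChip Mouse Gene 1.0 ST arrays, 3 for PJ34 and 3 for PBS, grouped and numbered from the sample titles. Per the labels, the authors used RMA in version 1.3.1 of Affymetrix Expression Console. RMA corrects background, applies quantile normalization and summarises probes, and the deposited table holds the resulting log2 expression value of each probe set. RMA can pull small differences towards 0, and the deposited table holds no detection calls. The genome build behind the array values is not given in the sources used here. With 3 arrays a group, the number of arrays limits the precision. The p-values weigh each difference against the spread between these samples, which limma estimates partly from all probe sets fitted. The study describes its array results as coming from independent experiments, and the labels do not say which arrays belong to which experiment.

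The gene table names 23410 of 35556 probe sets, 21789 by 1 gene and 1621 by several. Differences over all 23410 were fitted with limma 3.58.1 in R 4.3.3 (lmFit and eBayes) and adjusted by the Benjamini-Hochberg method, with calls at an adjusted p under 0.05. A gene was represented by its probe set with the highest mean. Of 154 genes in the 9 pathway lists, 7 had no probe set of their own and were not analysed here. The fit was tested on simulated data. Named by rule were all 10 regulators, from each list up to 4 called genes in each direction by size, and the 5 closest profiles. Other genes named in the text fall outside this rule. Among them are Asns, Phgdh, Slc7a11, Sesn1, Ppp1r15a, Xbp1, Dnajb11, Psph and Vegfa. Members and lists were chosen with earlier results of these data known. The promoter motifs, searched with Python 3.11.15, were chosen after the data had been seen. Alternatives were centring of arrays, an intensity trend with robust eBayes, a filter on dim probe sets, all probe sets of the array, the methods' t-test, a replicate block, the mean of a gene's probe sets and leaving out each array.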

Additional observations from a re-analysis of the deposited data

How the results depend on the processing

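No direction turned among the 7 regulators below the threshold or among the named pathway genes in any alternative. Counts of calls depended on the fit. An intensity trend with robust eBayes called 920 probe sets lower and 1008 higher, and 40 pathway genes lower and 9 higher. Without dim probe sets the counts were 776 and 891 of the 12696 probe sets left, and 37 and 8. Adjusting over all probe sets of the array, with those without a gene counted as well, gave 76 and 112, with 4 regulators lower and 5 pathway genes lower and 1 higher. The methods' t-test gave 62 and 78, with 4 regulators lower and 5 pathway genes lower and 0 higher. With arrays centred on their medians the counts were 365 and 332, a split of calls that favours lower where the deposited values favour higher (314 and 402), with 7 regulators lower and 18 pathway genes lower and 2 higher. Leaving out 1 array gave 79 to 320 probe sets lower and 143 to 281 higher, 4 to 7 regulators lower, and 4 to 13 pathway genes lower and 1 to 2 higher. The highest of these counts, 320 lower and 281 higher with 7 regulators lower, came without PJ34 replicate 2. Each fit without 1 array has fewer degrees of freedom. Why the counts differed between fits was not tested. A fit with the replicate number as a block gave 140 probe sets lower and 219 higher, 4 regulators lower, and 9 pathway genes lower and 1 higher. The labels do not say whether a shared replicate number marks the same experiment, and the data did not show a pairing. Deviations from the group means correlated at -0.013, 0.131 and -0.009 between arrays with the same number, and not every array correlated best with its own number. The regulators outside the threshold were Sesn2, Atf4 and Cebpg over all probe sets and under the block, and Sesn2, Cebpg and Nupr1 in the methods' t-test, beside the 3 that never passed. Ddit4 took values from -0.10 to 0.04 over the alternatives. No result could be tested for an outlying sample, as groups of 3 are too small.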
